A study of Mus musculus with 12 samples.

Results

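IL-25+ and IL-25- epithelial cells of the mouse proximal small intestine were compared across all genes. The comparison used 6 of the 12 libraries of the series, chosen by their labelled tissue and sort gate: 3 libraries of IL-25+ cells and 3 of IL-25- cells. The other 6 libraries came from gallbladder and entered no value other than a check with all 12 libraries in 1 fit and a check for carried-over transcripts. These gallbladder libraries are labelled with HDM (house dust mite) given 1 day before collection. They therefore differ from the intestinal libraries in treatment as well as tissue. All cells came from Flare25 mice, in which a red fluorescent protein reports the gene of the cytokine IL-25, and both groups carry this reporter. The intestinal mice are labelled as at homeostasis, with no treatment named for them. Epithelium was released with EDTA and DTT, and a sorter separated living, single cells that carried the epithelial surface protein EpCAM into a fluorescent (IL-25+) and a non-fluorescent (IL-25-) fraction. The IL-25- fraction is therefore the rest of the EpCAM+ epithelium, a mixture of lineages and not 1 cell type. Age and genetic background are not given in the labels. They also do not say whether replicate libraries came from separate mice, so the p-values measure the spread between these libraries, which may be technical.

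Tuft cells are rare chemosensory cells of the epithelium that carry a tuft of long, stiff microvilli. In the small intestine they are a main source of IL-25, which acts on innate lymphoid cells, and the IL-13 that those cells release drives crypt progenitors toward tuft and goblet fates. They depend on the POU-domain transcription factor Pou2f3 and signal through a taste-like cascade that opens the cation channel Trpm5.

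Library totals ran from 28546273 to 29709243 counts in IL-25+ and from 32775889 to 37760914 counts in IL-25- libraries. Mitochondrial genes took 12.1% to 17.2% of the counts in IL-25+ libraries and 26.6% to 34.9% in IL-25- libraries, a difference that moves with the groups. With the mitochondrial genes left out of the counts 5431 genes were called, and 98.7% of the calls of the full fit were kept. Levels are given as CPM, the counts per 1000000 counts of a library's TMM-scaled total, with n = 3 libraries per group throughout. IL-25- library 2 stood apart in goblet cell genes, whose 14 listed members summed to 58800 CPM there against 14550 CPM in library 1 and 6081 CPM in library 3. IL-25- library 3 stood apart in genes of the gallbladder. The 17 genes with a mean of at least 100 CPM in IL-25- gallbladder libraries and under 0.5 CPM in IL-25- intestinal libraries 1 and 2, a choice that fixes their low level in those libraries, had a median of 1.62% of their gallbladder level in library 3 and of 0.0241% to 0.11% in the IL-25+ intestinal libraries. IL-25+ library 3 held plasma cell transcripts, with Igkc at 65.7 CPM and Igha at 60.9 CPM.

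Tuft cell genes, genes usually linked to blood cells, interferon-response genes and a few microvillus genes were higher in IL-25+ cells, and genes of goblet, Paneth, enteroendocrine, dividing and absorptive cells were lower. With edgeR's quasi-likelihood test and an adjusted p under 0.05, 5406 of 14647 genes tested were called, 36.9%, of which 2652 (18.1% of genes tested) were higher and 2754 (18.8%) were lower in IL-25+ cells. A change of more than 16-fold was fitted for 536 of the genes that rose and 542 of those that fell. The median log2 difference over all genes tested was -0.07. The ranges of the groups did not overlap for 53.7% of genes tested. In bulk libraries of a mixed fraction, fewer cells of a type and less RNA per cell cannot be told apart.

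**Figure D1:**
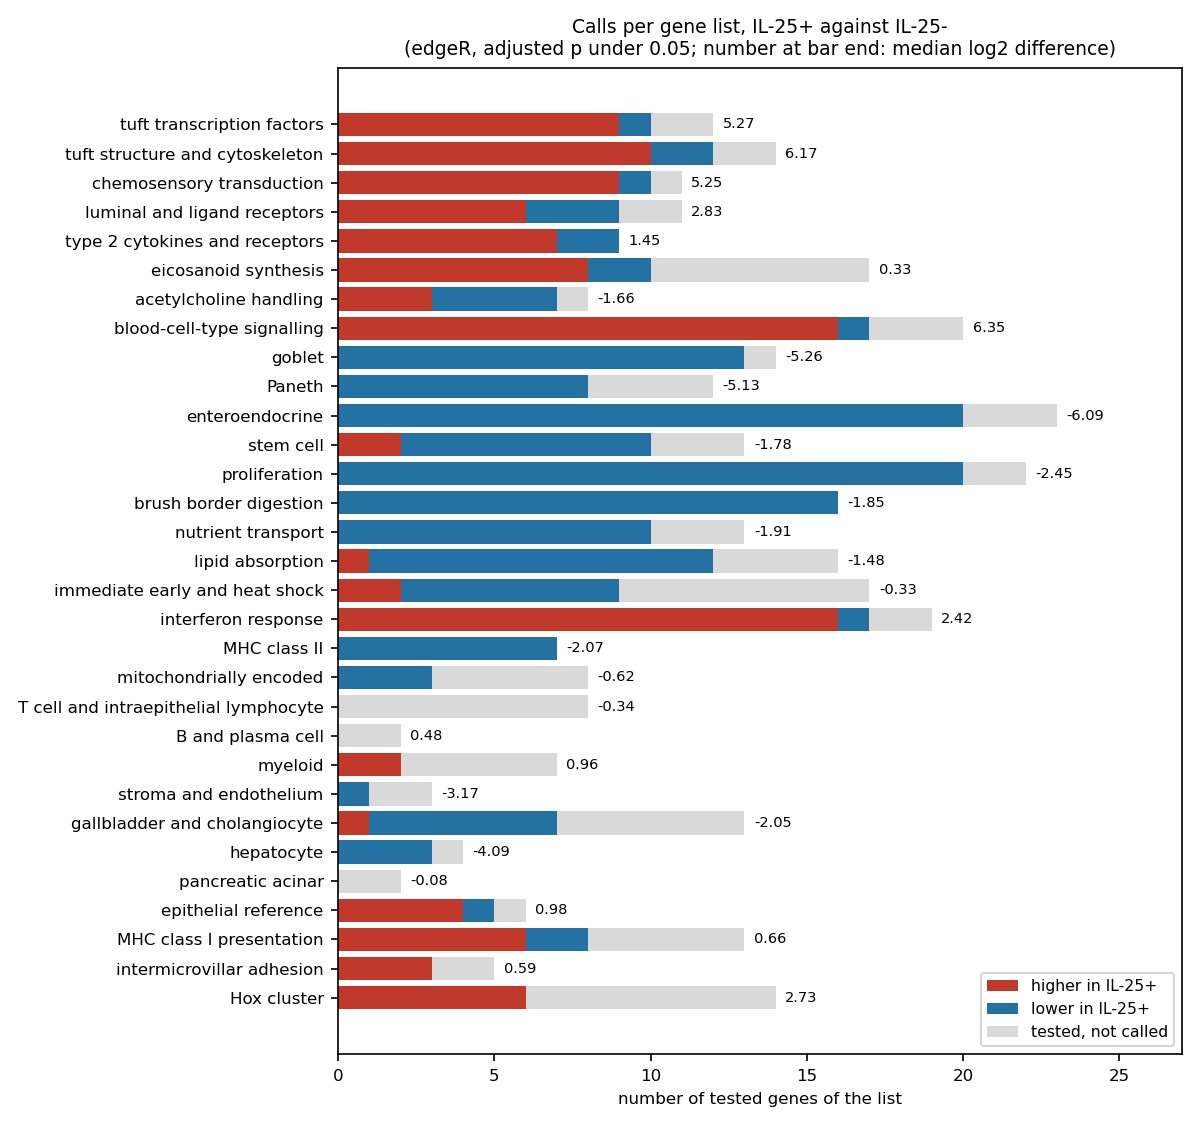
Number of tested genes in each gene list that were called higher in IL-25+ libraries (red), called lower (blue) or not called (grey), 3 libraries per group. The number at the end of each bar is the median log2 difference of the list, which was 5.27 for tuft transcription factors, 6.35 for blood-cell-type signalling genes, -6.09 for enteroendocrine genes and -1.85 for brush border digestion genes.

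The sorted gene itself, Il25 (ENSMUSG00000040770, chromosome 14: 54932695 to 54935837, GRCm38), was read at 5.74, 16.6 and 13.1 CPM in IL-25+ libraries 1 to 3 and at 0, 0.0313 and 0.0459 CPM in IL-25- libraries 1 to 3. These are 982 counts against 3 counts over the groups, a ratio of 438.8 with a 95% interval of 149.7 to 2131 that covers counting error only. Without overlap between the groups, the fitted log2 difference was 8.62 ± 0.88 (SE, adjusted p = 0.00015, edgeR). The cells were sorted on a reporter of Il25, so this difference checks the gate and is not an independent result. Of the IL-25+ libraries, library 1 had the lowest level. The other epithelial cytokines of type 2 immunity went in opposite directions. Tslp, an alarmin, had 12.2, 10.1 and 16 CPM in IL-25+ libraries against 1 count in the 3 IL-25- libraries together, a ratio of 1438 with a 95% interval of 257.6 to 56860. The alarmin Il33 was at 6.62, 9.84 and 7.18 CPM in IL-25+ and 19.6, 39.1 and 18 CPM in IL-25- libraries and fell (log2 difference -1.70 ± 0.38, adjusted p = 0.00803), a call that ended with all 12 libraries in the fit (adjusted p = 0.0743). Areg, a growth factor of the EGF family, fell as well, from 9.52 to 23.3 CPM in IL-25- libraries to 0.272 to 1.72 CPM in IL-25+ libraries.

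Most genes of IL-25 and IL-13 signalling were higher in IL-25+ cells. Of the 12 listed cytokine and receptor genes of type 2 immunity, 9 were tested, 7 rose and 2 fell, with a median log2 difference of 1.45. Il17rb, the subunit that makes the IL-25 receptor specific, was at 767, 1129 and 1034 CPM in IL-25+ libraries and at 4.22, 5.63 and 3.99 CPM in IL-25- libraries. Its groups were far apart, with a log2 difference of 7.73 ± 0.28 (adjusted p = 1.06e-06). The partner subunit Il17ra differed less, at 109 to 144 CPM against 35.4 to 56.1 CPM. The IL-13 receptor subunits Il13ra1 (log2 difference 1.45 ± 0.18) and Il4ra (1.22 ± 0.25) and the downstream factor Stat6 (0.61 ± 0.15, adjusted p = 0.011) also rose, and each was well expressed in both fractions. The decoy receptor Il13ra2 was at 0 counts in all 6 libraries.

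Among 12 transcription factors linked to tuft cells, all tested, 9 rose and 1 fell, with a median log2 difference of 5.27. Pou2f3, which tuft cells need to form, was at 792, 990 and 1069 CPM in IL-25+ libraries and at 18.4, 18.1 and 10.5 CPM in IL-25- libraries. The ranges lay apart, and the log2 difference was 5.92 ± 0.30 (adjusted p = 3.78e-06). Its coactivator 1810046K07Rik, the mouse gene of the OCA-T family, followed with 335, 425 and 432 CPM against 8.21, 6.32 and 9.73 CPM (5.62 ± 0.24). Colca2, the other gene of that family, rose less, from 6.79 to 15.8 CPM in IL-25- libraries to 42.1 to 61.7 CPM in IL-25+ libraries.

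Gfi1b, a zinc-finger repressor best known from blood cell precursors, was at 250, 317 and 339 CPM in IL-25+ libraries and at 1.59, 0.876 and 0.206 CPM in IL-25- libraries. Its paralog Gfi1, a factor of secretory progenitors, did the opposite: 0.34, 0.0732 and 0 CPM in IL-25+ libraries and 6.32, 3.88 and 2.68 CPM in IL-25- libraries. The log2 differences were 8.42 ± 0.62 for Gfi1b (adjusted p = 2.65e-05) and -4.91 ± 1.19 for Gfi1 (adjusted p = 0.0113). Spib, an ETS factor, had 1532, 1730 and 2419 CPM in IL-25+ libraries against 11.7 to 31.5 CPM (6.38 ± 0.43). Per kb of exon it was the most abundant factor of the list in IL-25+ cells, at 660.3 CPM per kb against 307.7 for Pou2f3, 219 for Sox9 and 165 for Gfi1b. The homeobox factors Hmx2 and Hmx3 rose from at most 1.43 CPM to between 26.5 and 63.8 CPM, and Runx1 rose with a log2 difference of 4.92 ± 0.24. Sox9, a factor of crypt and tuft cells, was present in both fractions, with 758 to 1006 CPM against 79.2 to 222 CPM (2.77 ± 0.38). Ascl2 and Sox4, factors of stem cells and early progenitors, were at or under 3.57 CPM in IL-25+ libraries and were not called. In IL-25- libraries Ascl2 was at 15.1, 2.03 and 3.17 CPM, which overlaps the IL-25+ range. Sox4 was at 9.12, 4.94 and 6.03 CPM there, without overlap (-1.22 ± 0.51, adjusted p = 0.092, edgeR), and DESeq2 called it lower (adjusted p = 0.0431).

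Pou2f3 binds the octamer, a sequence of 8 bases (ATGCAAAT, or ATTTGCAT when the match lies on the other strand). The RefSeq promoter windows of GRCm38.p6, from 250 bases before to 50 bases after a gene's start, were searched on both strands for exact matches, and a gene with several starts counts as holding one if any of its windows does. Of 10536 tested genes with a window, 178 held a match, 1.69%. The share was 2.72% of genes that rose (54 of 1985), 1.47% of genes that fell (31 of 2114) and 1.44% of genes not called (93 of 6437). Among genes that rose more than 16-fold it was 4.15% (14 of 337), and among those that fell more than 16-fold 1.53% (6 of 391). Of 55 genes from the tuft cell lists that rose and had a window, 4 held a match: Sucnr1, 1810046K07Rik, Hpgds and Il4ra. These shares are descriptions without a test, and a match says nothing on whether the site is bound. The 250 bases upstream of the start are shown for 3 of these and for Ly6g6d, a surface protein gene with 2 matches, because each joins an octamer to a gene that rose; they were chosen after the values were seen. All run 5′ to 3′ toward the gene, and capitals mark the octamer in either orientation.
Sucnr1 (chr3:60081619-60081868, plus strand): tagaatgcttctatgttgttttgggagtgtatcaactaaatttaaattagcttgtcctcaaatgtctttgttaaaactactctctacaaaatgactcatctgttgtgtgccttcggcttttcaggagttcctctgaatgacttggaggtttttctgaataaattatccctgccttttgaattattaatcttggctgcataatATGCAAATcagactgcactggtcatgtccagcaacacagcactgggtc
1810046K07Rik (chr9:51328919-51329168, minus strand): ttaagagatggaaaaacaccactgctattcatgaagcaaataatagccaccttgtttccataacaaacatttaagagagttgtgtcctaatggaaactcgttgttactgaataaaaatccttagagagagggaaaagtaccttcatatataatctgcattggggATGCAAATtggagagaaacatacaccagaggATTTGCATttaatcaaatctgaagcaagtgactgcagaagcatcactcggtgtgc
Hpgds (chr6:65144731-65144980, minus strand): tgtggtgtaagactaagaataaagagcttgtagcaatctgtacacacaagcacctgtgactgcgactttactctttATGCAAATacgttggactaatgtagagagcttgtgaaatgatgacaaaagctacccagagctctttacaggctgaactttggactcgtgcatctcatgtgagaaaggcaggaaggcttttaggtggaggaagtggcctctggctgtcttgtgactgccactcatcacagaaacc
Ly6g6d (chr17:35081240-35081489, minus strand): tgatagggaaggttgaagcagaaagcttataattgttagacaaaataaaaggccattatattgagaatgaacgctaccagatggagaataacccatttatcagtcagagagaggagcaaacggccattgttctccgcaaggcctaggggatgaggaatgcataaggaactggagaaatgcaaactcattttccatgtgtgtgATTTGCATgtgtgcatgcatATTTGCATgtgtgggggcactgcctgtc
The match began 48 bases before the start in Sucnr1, and the first of 2 matches began 86 bases before it in 1810046K07Rik and 48 bases before it in Ly6g6d. In Hpgds the single match lay farther out, 174 bases before the RefSeq start. The gene as annotated for the counts begins upstream of that start (chromosome 6: 65117293 to 65144908, minus strand), so this match lies inside it. Ly6g6d has several RefSeq starts, and the one shown lies upstream of the whole gene as annotated for the counts. Ly6g6d was at 315, 423.7 and 325.1 CPM in IL-25+ libraries and at 1.857, 0.939 and 0.298 CPM in IL-25- libraries (log2 difference 8.44 ± 0.60).

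Most genes listed under tuft structure and cytoskeleton rose. Of 14 tested, 10 rose, 2 fell and 2 were not called, with a median log2 difference of 6.17. The list also holds tuft cell genes with other roles, such as the adaptor Sh2d6, and these count in the median. Dclk1, a microtubule-binding kinase used to mark tuft cells, was at 2991, 3001 and 2857 CPM in IL-25+ libraries and at 48.5, 50.5 and 12.6 CPM in IL-25- libraries (6.31 ± 0.54, adjusted p = 5.28e-05). Avil, an actin-binding protein of the tuft, was at 1887, 2106 and 2367 CPM against 24.3, 20.7 and 6.68 CPM (6.94 ± 0.51). The groups did not overlap for either gene, and IL-25- library 3 had the lowest level of both.

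Sh2d6, an SH2-domain adaptor, had the second largest gain in mean CPM among protein-coding genes, to 15180, 19360 and 18810 CPM in IL-25+ libraries from 79.5, 71.9 and 24.2 CPM in IL-25- libraries (8.25 ± 0.53). The keratin Krt18 was at 7320 to 10160 CPM against 92.7 to 246 CPM (5.78 ± 0.40). Its partner Krt8, at a similar 143 to 179 CPM in the IL-25- libraries, rose less, with a log2 difference of 2.74 ± 0.19. Basp1, a membrane-bound protein known from nerve endings, had 130, 162 and 184 CPM against 0.162, 0.219 and 0.0918 CPM (9.99 ± 0.34, adjusted p = 9.96e-07). Vil1, the villin of all brush borders, was at 2276 to 3017 CPM in IL-25+ and 1566 to 2098 CPM in IL-25- libraries and was not called (0.55 ± 0.20, adjusted p = 0.0591), although the ranges did not overlap. Pls1 and Ezr, also proteins of microvilli, fell, with log2 differences of -1.63 ± 0.26 and -0.86 ± 0.26. They were the only 2 of the 14 tested genes of this list that fell. Genes of actin-bundling proteins were also among the 10 that rose. The call of Ezr ended without each of the IL-25+ libraries in turn (adjusted p = 0.0747 to 0.0945).

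**Figure D2:**
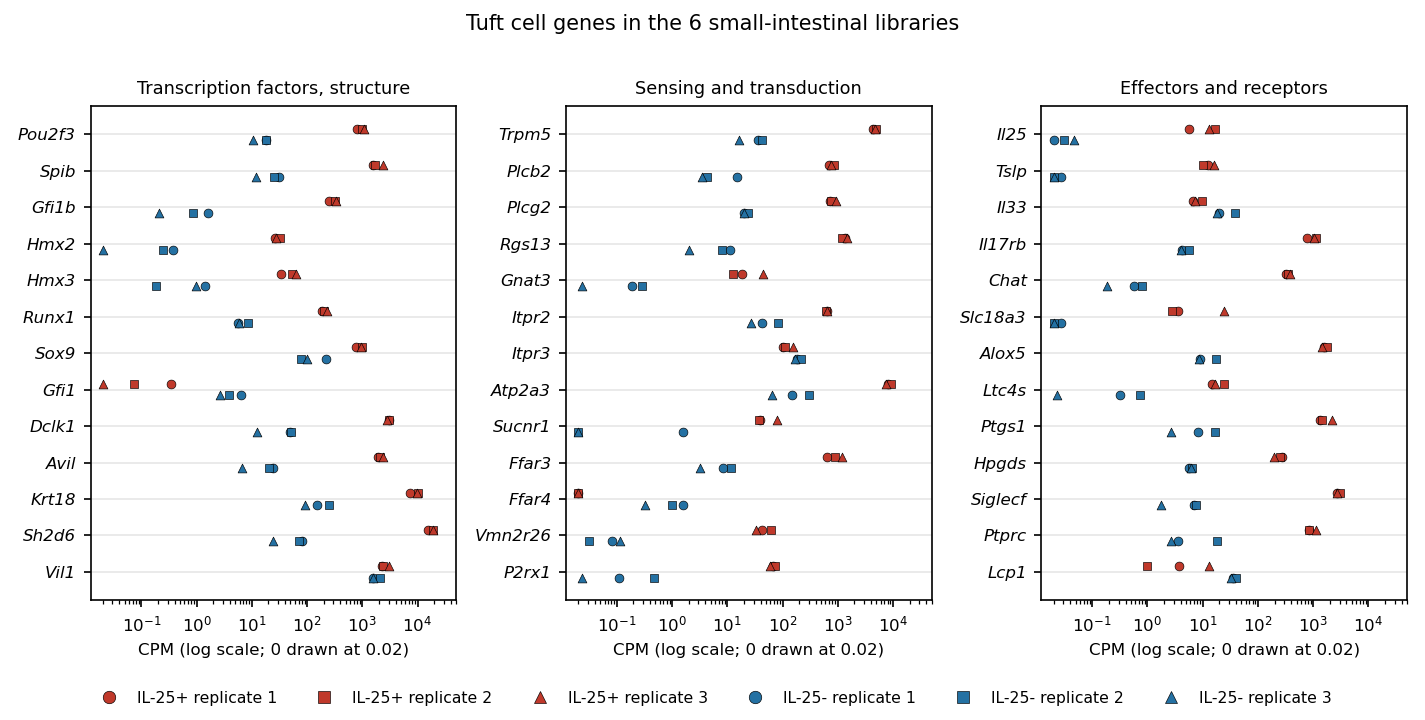
Level of 39 genes in each small-intestinal library, in CPM on a log scale, with 1 symbol per library (red IL-25+, blue IL-25-) and levels of 0 at the left edge. Pou2f3, Trpm5 and Siglecf separate by more than 10-fold, while Gfi1, Itpr3, Ffar4, Il33 and Lcp1 lie the other way round.

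The taste-like cascade was higher at most of its steps. Of 14 listed genes of chemosensory transduction, 11 were tested, 9 rose and 1 fell, with a median log2 difference of 5.25. Trpm5 (chromosome 7: 143069153 to 143094642), the cation channel at the end of the cascade, was at 4285, 4842 and 4776 CPM in IL-25+ libraries and at 35.4, 43.1 and 16.2 CPM in IL-25- libraries. Its log2 difference was 7.20 ± 0.41 (adjusted p = 7.55e-06), and the IL-25+ libraries lay close together. Both phospholipases of the cascade rose, Plcb2 to 686, 869 and 742 CPM from 15.2, 4.38 and 3.56 CPM (6.64 ± 0.60) and Plcg2 to 717, 761 and 947 CPM from 19.9 to 23.7 CPM (5.25 ± 0.21).

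The G protein subunits had few counts. Gnat3, the alpha subunit gustducin, had 18.2, 12.8 and 44.5 CPM in IL-25+ libraries and at most 0.282 CPM in IL-25- libraries (7.29 ± 0.84). Gng13, the gamma subunit, reached only 0.696 to 1.12 CPM, and its call (4.31 ± 1.49, adjusted p = 0.0489) ended under 7 of 13 alternatives, among them the omission of any 1 library other than IL-25- library 1 (0.103 to 0.133). Gnb3, the beta subunit, was at 0 counts in all 6 libraries. Of the taste receptor subunits, Tas1r3 was at 3.69 to 7.95 CPM in IL-25+ and 1.69 to 5.28 CPM in IL-25- libraries and was not called (0.63 ± 0.60, adjusted p = 0.446), and Tas1r1 and Tas1r2 were too low to be tested.

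Downstream of the phospholipases, the calcium-release channels of the endoplasmic reticulum went apart. Itpr2 rose to 639, 602 and 631 CPM from 42.1, 84.5 and 26.8 CPM (3.61 ± 0.39), and Itpr3 fell, from 182, 214 and 168 CPM to 103, 110 and 152 CPM (-0.63 ± 0.20, adjusted p = 0.0336). That call ended under 6 of 14 alternatives, among them the omission of library 1 or 2 of either group (0.0658 to 0.128). Atp2a3, the pump that returns calcium to the store, was at 7979, 9081 and 7379 CPM against 150, 302 and 65.6 CPM (5.56 ± 0.54). Atp2b2, a calcium pump of the plasma membrane, was at 170, 290 and 251 CPM against 0.269, 0.344 and 0.711 CPM (9.03 ± 0.43). Rgs13, a regulator that shortens G protein signals, was at 1184 to 1495 CPM against 2.06 to 11.2 CPM (7.56 ± 0.62).

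Receptors for luminal and other ligands split. Of 11 tested, 6 rose and 3 fell, with a median log2 difference of 2.83. These are 54.5% higher, against 18.1% of all genes tested, and 27.3% lower, against 18.8%. Sucnr1, the receptor for succinate, a metabolite of luminal protists and bacteria, was at 38.5, 37.4 and 79.6 CPM in IL-25+ libraries and at 1.59, 0 and 0 CPM in IL-25- libraries. The groups did not overlap (6.60 ± 1.40, adjusted p = 0.00805), and the call ended with no filter on low counts (adjusted p = 0.0894). All 59 IL-25- counts came from library 1; without it the group is at 0 counts and the fitted value, which then depends on the prior count, was 13.69 (adjusted p = 0.00014). Ffar3, which senses short-chain fatty acids, was at 637, 875 and 1191 CPM against 8.26, 11.5 and 3.26 CPM (6.88 ± 0.52). Vmn2r26, a vomeronasal-type receptor, had 42.0, 61.0 and 33.5 CPM against at most 0.115 CPM (9.11 ± 0.50), and the ATP-gated channel P2rx1 had 59.1 to 71.8 CPM against at most 0.469 CPM (8.44 ± 0.69). The orphan receptor Gprc5c and the GABA-B receptor subunit Gabbr1 rose too. The receptors that fell were Ffar4, for long-chain fatty acids, Chrm3, a muscarinic acetylcholine receptor, and Gpr35. The call of Chrm3 ended without IL-25- library 1 (adjusted p = 0.058) or IL-25+ library 3 (0.0664). Ffar4 had 0 counts in the 3 IL-25+ libraries against 105 counts in the IL-25- libraries, at least 26.1-fold lower with a floor of 3 counts over the group. The bile acid receptor Gpbar1 had 1 count over the IL-25+ and 6 counts over the IL-25- libraries and was not tested.

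Acetylcholine synthesis was higher and most other genes of acetylcholine handling were lower. Of 8 tested genes, 3 rose and 4 fell, with a median log2 difference of -1.66. Chat, which makes acetylcholine, was at 316, 357 and 374 CPM in IL-25+ libraries and at 0.565, 0.782 and 0.183 CPM in IL-25- libraries (9.45 ± 0.46, adjusted p = 3.5e-06). Slc18a3, the vesicular transporter of acetylcholine, had 3.63, 2.82 and 24.2 CPM, mostly from IL-25+ library 3, against 1 count over the IL-25- libraries. Slc5a7, the high-affinity choline transporter of nerve terminals, was at 1 count or less in every library. Colq, the collagen tail that anchors acetylcholinesterase, had 11.4, 31.8 and 21.0 CPM against 0 counts in the IL-25- libraries, at least 793.5-fold higher with a floor of 3 counts over the group. The enzyme it anchors, Ache, fell, from 6.03 to 16.4 CPM to 0.951 to 3.02 CPM (-2.75 ± 0.62), and the related esterase Bche fell as well. The choline transporter Slc44a1 and the muscarinic receptor Chrm1 were the other genes that fell.

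Genes of eicosanoid synthesis rose at the first steps and in selected branches. Of 17 tested, 8 rose, 2 fell and 7 were not called, with a median log2 difference of 0.33. These are 47.1% higher, against 18.1% of all genes tested, and 11.8% lower, against 18.8%. In the leukotriene branch, Alox5, which oxidises arachidonic acid, was at 1573, 1795 and 1474 CPM against 8.77, 17.2 and 8.72 CPM (7.13 ± 0.35). Its activating protein Alox5ap rose to 492, 551 and 675 CPM from at most 6.29 CPM (7.21 ± 0.59), and Ltc4s, which makes leukotriene C4, rose to 14.5, 24.5 and 16.6 CPM from at most 0.72 CPM (5.73 ± 0.88). Lta4h, which leads to leukotriene B4 instead, fell (-0.88 ± 0.25, adjusted p = 0.0226), a call that ended without IL-25- library 1 or 3 or IL-25+ library 2 or 3 (0.063 to 0.0894). Mgst2, a second enzyme able to make leukotriene C4, fell too, from 71.2, 99.8 and 80.6 CPM to 25.9, 24.5 and 24 CPM (-1.76 ± 0.20).

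In the prostaglandin branch, Ptgs1 (COX-1) was at 1334, 1416 and 2207 CPM against 8.37, 16.7 and 2.66 CPM (7.48 ± 0.69). The inducible Ptgs2 (COX-2) rose with a smaller log2 difference, at 28.0, 38.1 and 73.3 CPM against 1.64, 5.48 and 2.71 CPM (3.83 ± 0.54). Hpgds, a synthase of prostaglandin D2, was at 276, 248 and 197 CPM against 5.76, 6.35 and 6.13 CPM (5.31 ± 0.21, adjusted p = 1.56e-06). The other prostaglandin D2 synthase, Ptgds, was at 0 counts in all 6 libraries. Pla2g4a, the phospholipase that frees arachidonic acid, rose by a log2 difference of 3.65 ± 0.31.

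Signalling genes better known from blood cells were higher in IL-25+ cells. Of 20 tested, 16 rose and 1 fell, with a median log2 difference of 6.35. The list summed to 33290, 38140 and 40720 CPM in IL-25+ libraries against 563.7 to 790.8 CPM in IL-25- libraries. The largest part of these sums was Cd24a, at 17360, 18960 and 20130 CPM against 369 to 501 CPM. Ptprc, the phosphatase CD45 that marks leukocytes, was at 839, 838 and 1106 CPM in IL-25+ libraries and at 3.53, 17.8 and 2.68 CPM in IL-25- libraries (6.86 ± 0.78, adjusted p = 0.000258). Siglecf (chromosome 7: 43351341 to 43359531), a sialic-acid receptor used to sort eosinophils, was at 2649, 3008 and 2737 CPM against 6.86, 7.54 and 1.74 CPM (9.03 ± 0.60). The groups stood far apart for both genes.

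The adaptor and lipid-signalling genes moved the same way. The GTPase Rac2 (8.15 ± 0.47), the kinase Bmx (8 ± 0.33), the exchange factor Vav1 (7.32 ± 0.41), the lipid phosphatase Inpp5d (7.33 ± 0.53), the phosphatase Ptpn6 (6.42 ± 0.24) and the adaptor Fyb (6.28 ± 0.51) all rose. Pik3r5, a regulatory subunit of PI3-kinase gamma, was at 3744, 4206 and 4528 CPM against 43.2, 67.2 and 18.4 CPM (6.60 ± 0.49). Cd24a, a small surface glycoprotein, had the largest gain in mean CPM among protein-coding genes, to 17360, 18960 and 20130 CPM from 489, 501 and 369 CPM (5.38 ± 0.24). Lcp1, the leukocyte plastin, fell, from 32.2 to 40.2 CPM to 0.988 to 12.8 CPM (-2.62 ± 0.74, adjusted p = 0.0213); the call ended with no filter on low counts (adjusted p = 0.131) and without IL-25- library 2 (0.0555) or IL-25+ library 1 (0.0717). Syk was not called, and Zap70 and Coro1a, which leukocytes express, were under 1 CPM in every library.

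Markers of T cells were low in both fractions. Their list summed to 17.8, 6.25 and 63.5 CPM in IL-25+ libraries and to 10.9, 70.9 and 25.2 CPM in IL-25- libraries, overlapping ranges. Of its 8 tested members 0 were called by edgeR, 0 had an unadjusted p under 0.05, and 0 were called by DESeq2 or limma-voom. Its highest members were Gzma and Gzmb, at 20.7 and 13.5 CPM in IL-25+ library 3 and at 24.8 and 16.6 CPM in IL-25- library 2, followed by Itgae at up to 11.5 CPM, Cd3e at up to 7.79 CPM and Cd8a at up to 7.62 CPM. Plasma cell transcripts were high in IL-25+ library 3 alone, where the list summed to 132.8 CPM against at most 22.7 CPM elsewhere. The 15 myeloid markers summed to 530.8, 620.3 and 567 CPM in IL-25+ libraries against 54.3 to 70.9 CPM in IL-25- libraries, most of it from Kit. Of 7 tested, 2 rose, Kit and Adgre1 (28.6%, against 18.1% of all genes tested). Kit, a receptor for stem cell factor, was at 507, 595 and 540 CPM against 30.3, 40.6 and 38.8 CPM (3.90 ± 0.19), while the mast cell proteases Mcpt1 and Cpa3 and the marker genes S100a8 and C1qa were at 0 in all 6 libraries. Adgre1 reached 2.53 to 4.59 CPM against 3 counts over the IL-25- libraries. Of the other myeloid markers, Itgam, Cd68 and Lyz2 peaked at 35.0, 5.12 and 6.37 CPM and were not called. Among stromal and endothelial markers, Tagln and Pecam1 peaked at 8.29 and 5.16 CPM without a call, and Vim, at up to 5.87 CPM in IL-25- libraries, fell, though not with all 12 libraries in the fit (adjusted p = 0.0562).

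The largest fitted increases included genes outside the lists. AI593442, an uncharacterised coding gene, was at 26.1, 34.2 and 42.3 CPM in IL-25+ libraries against 1 count over the IL-25- libraries, a ratio of 3831 with a 95% interval of 687 to 151400. Sema5b, a semaphorin of axon guidance, was at 98.3, 264 and 149 CPM against 0.108, 0.125 and 0.115 CPM (10.48 ± 0.52, adjusted p = 3.7e-06). Smyd1, a methyltransferase known from muscle, was at 132, 160 and 115 CPM against at most 0.229 CPM (9.79 ± 0.37). Cd180, a Toll-like receptor homolog of B cells, had 2046 counts against 3 counts over the groups, a ratio of 914.2 with a 95% interval of 312.4 to 4437. Gm4952 (9.03 ± 0.38) and Tnc, the matrix protein tenascin C (8.83 ± 0.62), complete the 12 largest increases together with Colq, Basp1, Chat, Vmn2r26, Siglecf and Atp2b2. Ccnj, a cyclin, was at 3387, 3926 and 3975 CPM against 17.4, 17.2 and 11.4 CPM (7.94 ± 0.28, adjusted p = 9.96e-07).

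Of 291 tested long intergenic non-coding RNAs, 61 rose (21.0%, near the 18.1% of all genes tested) and 14 fell (4.81%, against 18.8% of all genes tested), with a median log2 difference of 0.51. AI838599 was at 126.2, 162.5 and 81.9 CPM against 0.188, 0.313 and 0.0918 CPM (9.32 ± 0.47), and 1700081H04Rik had 3300 counts against 3 counts over the groups. Hox genes, which set position along the body axis, were low in both fractions, and 25 of 39 were too low to be tested. Of the 14 tested, 6 rose, among them Hoxa3 and Hoxb5. Hoxa3 was at 34.1, 60.0 and 28.9 CPM against 2.50, 1.75 and 1.15 CPM (4.51 ± 0.44, adjusted p = 0.00012). With all 12 libraries in the fit 4 rose, Hoxb5 (adjusted p = 0.0635) not among them, and with a filter of 5 CPM in 3 libraries, which fewer of them pass, 2 rose. The call of Hoxb5 also ended without IL-25- library 3 (0.0572) or IL-25+ library 2 (0.1).

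Transcripts of tuft cell genes were measurable in the IL-25- fraction. Over 61 genes of the tuft cell lists that rose and had at least 20 CPM in IL-25+ cells, the median level was 1.33%, 1.32% and 0.464% of the IL-25+ mean in IL-25- libraries 1, 2 and 3. Library 3 had the lowest such level. Absorptive genes that fell were at a median of 32.8%, 30.6% and 22.7% of the IL-25- mean in IL-25+ libraries 1, 2 and 3, over 35 genes.

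Goblet cell genes, whose products make the mucus layer, were lower in IL-25+ cells. Of 14 listed genes, all tested, 13 fell and 1 was not called, with a median log2 difference of -5.26. Muc2 (chromosome 7: 141690340 to 141754693), the gel-forming mucin, was at 36.5, 74.6 and 154 CPM in IL-25+ libraries and at 4332, 14700 and 1592 CPM in IL-25- libraries. The groups did not overlap, IL-25- library 2 was the highest, and the log2 difference was -6.28 ± 0.99 (adjusted p = 0.00214) and -5.06 without IL-25- library 2. Clca1, which processes mucus, was at 3322, 17390 and 888 CPM in IL-25- libraries and 35.6 to 150 CPM in IL-25+ libraries (-6.19 ± 1.27), and -4.41 without library 2. Fcgbp, a mucus protein, was at 3169, 16350 and 927 CPM against 18.8 to 101 CPM (-6.63 ± 1.33), and -4.90 without library 2. The goblet regulator Spdef, which varied less at 19.6, 24.3 and 14.9 CPM in IL-25- libraries, was at 0.476, 0.0732 and 0.806 CPM in IL-25+ libraries (-5.43 ± 0.72, adjusted p = 0.000554). Zg16 and Retnlb lost their calls under 7 and 6 of 14 alternatives. For Zg16 these include the omission of any 1 library other than IL-25- library 3 (adjusted p = 0.0563 to 0.103), and for Retnlb that of IL-25- library 1 or 2 or IL-25+ library 1 (0.079 to 0.113). Muc13, a membrane mucin, was the member not called, at 2596 to 3620 CPM against 1975 to 2526 CPM. With no filter on low counts 7 of the 14 were called, Clca1 (0.0698) and Fcgbp (0.0642) no longer among them, and without IL-25- library 2, 11 were called lower and 1 higher.

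Paneth cell genes, which encode antimicrobial proteins of the crypt base, fell in the main, with calls that depended on the setting. Of 12 tested, 8 fell and 4 were not called, with a median log2 difference of -5.13; the number that fell was 5 with the replicate number as a block, 5 with all 12 libraries in the fit and 1 with no filter on low counts. Lyz1, lysozyme, was at 3.06, 6.73 and 19.2 CPM in IL-25+ and at 72.0, 619 and 239 CPM in IL-25- libraries (-5 ± 1.02, adjusted p = 0.00851). Itln1, a lectin, was at 13.9, 7.86 and 51.0 CPM against 337, 2449 and 482 CPM (-5.49 ± 1.14). Both calls ended with no filter (0.0703 and 0.0709) and with all 12 libraries in the fit (0.0521 and 0.0563). Reg3g and Reg3b, bactericidal lectins made by several epithelial lineages, overlapped between groups and were not called; Reg3g was at 90.0, 117 and 19.1 CPM against 334, 100 and 274 CPM.

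Enteroendocrine genes had the lowest median of the lists. Of 23 tested, 20 fell and 3 were not called, with a median log2 difference of -6.09. Gip, the incretin hormone of K cells, was at 3.67, 0.695 and 1.10 CPM in IL-25+ libraries and at 577, 2311 and 952 CPM in IL-25- libraries (-9.45 ± 0.87, adjusted p = 8.84e-05). Chga, chromogranin A, was at 0.917, 0.183 and 2.27 CPM against 136, 252 and 175 CPM (-7.38 ± 0.70), and the lineage factor Neurod1 was at 0.646, 0.146 and 0.110 CPM against 25.7, 76.5 and 51.5 CPM (-7.37 ± 0.72). These genes showed no overlap between the groups.

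A few hormones were held by single IL-25+ libraries. Cck was at 44.2 CPM and Gcg at 85.2 CPM in IL-25+ library 1 against at most 0.806 CPM in the other IL-25+ libraries, and neither was called (adjusted p = 0.062 and 0.207). Without that library their log2 differences were -10.76 and -10.24 with adjusted p = 0.000267 and 4.99e-05. Sst, somatostatin, was at 59.1 CPM in IL-25+ library 2 and at 1.53 and 0.952 CPM in the others; it fell (adjusted p = 0.0376), a call that ended under 5 of 14 alternatives, among them the omission of any 1 IL-25- library (0.0642 to 0.134). Chgb fell from 3702 to 8110 CPM to 195, 5.41 and 33.2 CPM (-6.09 ± 1.35, adjusted p = 0.0127), and that call ended without IL-25- library 2 (0.0684) or IL-25+ library 3 (0.0503), with all 12 libraries (0.0673) and with no filter (0.0834). Fewer members, 15, were called lower with all 12 libraries in the fit.

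The 12 largest fitted decreases included Nts and Gip of the enteroendocrine list. The others were the receptor Ret, the transcription factors Rfx6 and Lmx1a, the secretory granule gene Scg5, the exocytosis genes Stxbp5l, Rimbp2 and Syt7, the G protein regulator Rgs4, the phospholipase Pla2g2f and the fetal protein gene Afp. Ret had 1 count over the IL-25+ libraries and 15.9, 40.5 and 18.8 CPM in IL-25- libraries, a ratio of 2017 with a 95% interval of 361.8 to 79710. Stxbp5l likewise had 1 count against 23.1, 38.8 and 16.6 CPM, a ratio of 2105 with a 95% interval of 377.4 to 83150. Rfx6, a factor of endocrine progenitors, was at 0.272, 0.402 and 0 CPM against 36.9, 51.4 and 41.6 CPM (-7.56 ± 0.72, adjusted p = 0.000101).

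**Figure D3:**
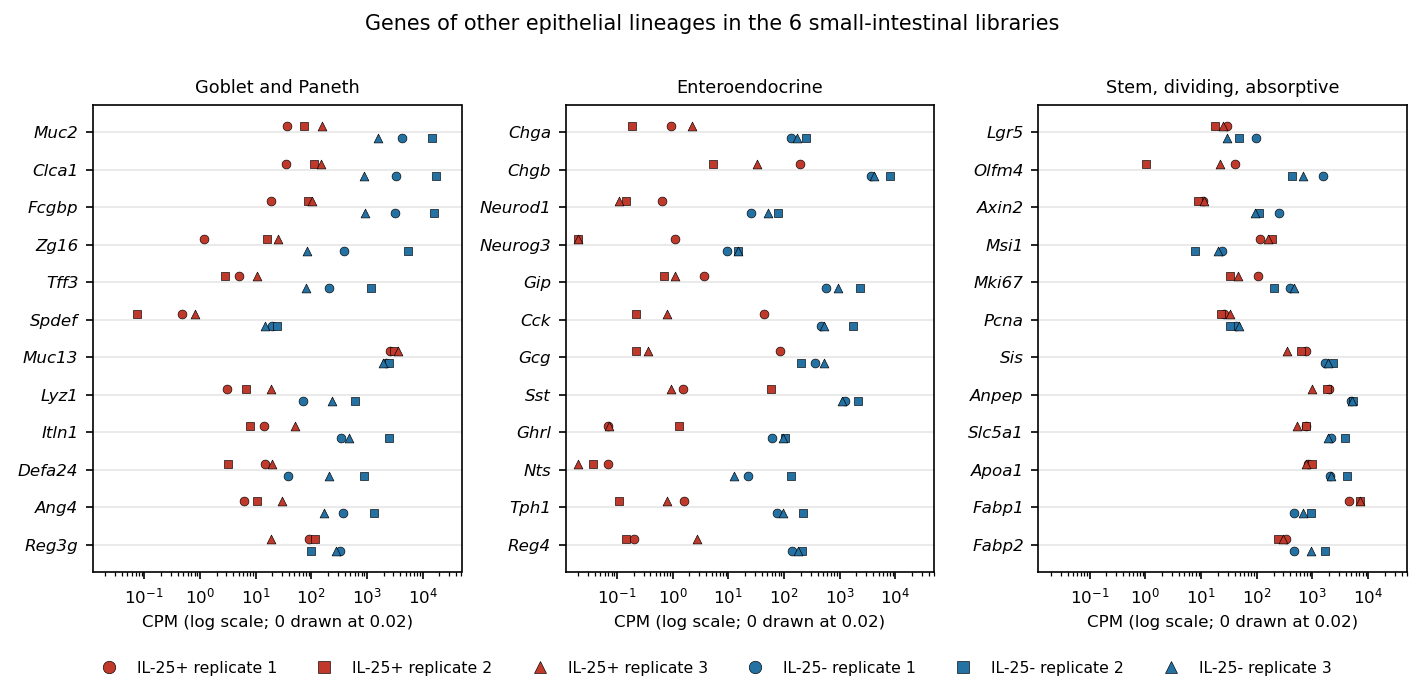
Level of 36 genes of other epithelial lineages in each small-intestinal library, in CPM on a log scale, with 1 symbol per library (red IL-25+, blue IL-25-) and levels of 0 at the left edge. IL-25- library 2 (blue squares) is highest for Muc2, Clca1, Fcgbp and Zg16, absorptive genes differ less than secretory genes, and Msi1 and Fabp1 are higher in IL-25+ libraries.

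Stem cell genes mostly fell. Of 13 tested, 8 fell, 2 rose and 3 were not called, with a median log2 difference of -1.78. The share that fell was 61.5%, against 18.8% of all genes tested, and the share that rose was 15.4%, near the 18.1% of all genes tested. Axin2, a target of Wnt signalling, was at 10.8, 8.78 and 11.1 CPM in IL-25+ and at 248, 112 and 91.5 CPM in IL-25- libraries (-3.88 ± 0.39, adjusted p = 0.000136). Olfm4 was at 41.3, 1.02 and 21.9 CPM against 1544, 429 and 670 CPM (-5.36 ± 1.29), a call that ended with no filter (adjusted p = 0.0973) and without IL-25- library 1 (0.0531) or 2 (0.0576) or IL-25+ library 3 (0.063). Lgr5, the marker of crypt base stem cells, fell only slightly, at 29.1, 17.8 and 25.1 CPM against 95.2, 47.1 and 28.8 CPM (-1.25 ± 0.41, adjusted p = 0.0416). IL-25- library 1 had the highest level, and without it or any 1 IL-25+ library the call ended (0.0649 to 0.17), as it did with limma-voom (0.0707) and with all 12 libraries (0.366). The RNA-binding protein Msi1 rose, to 116, 188 and 162 CPM from 23.9, 7.70 and 19.8 CPM (3.18 ± 0.40, adjusted p = 0.000462). Prom1 rose by a log2 difference of 0.78 ± 0.23, a call that ended without IL-25- library 3 (0.0833) and without each IL-25+ library (highest 0.0826).

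Most genes of cell division fell. Of 22 tested, 20 fell, with a median log2 difference of -2.45; with all 12 libraries in the fit 11 fell, Mki67 (adjusted p = 0.0544) not among them. Mki67 was at 104, 32.9 and 46.2 CPM in IL-25+ and at 403, 205 and 466 CPM in IL-25- libraries (-2.55 ± 0.46, adjusted p = 0.00271). Ube2c, which acts in mitotic exit, was at 14.1, 9.65 and 11.3 CPM against 85.8, 62.3 and 76.7 CPM (-2.68 ± 0.24). Pcna and Ccnb2 were not called. The immediate early genes Egr1 (-3.88 ± 0.26), Fosb (-3.10 ± 0.45), Nr4a1 (-4.43 ± 0.46) and Myc (-3.42 ± 0.42) fell as well, and Jund and Zfp36 rose. Of 17 genes of the early-response and heat-shock list, 7 were lower (41.2%, against 18.8% of all genes tested) and 2 higher (11.8%, against 18.1%). The call of Jund ended with all 12 libraries (0.0781), and that of Zfp36 without IL-25- library 1 or 3 or IL-25+ library 2 or 3 (0.0742 to 0.103).

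Absorptive enterocyte genes were lower by smaller factors than secretory genes, and these calls rested on a fit without the gallbladder libraries. All 16 genes of brush border digestion fell (median log2 difference -1.85), as did 10 of 13 tested genes of nutrient transport (-1.91) and 11 of 16 of lipid absorption (-1.48). With all 12 libraries sharing 1 estimate of the spread, 3, 4 and 3 of them were called lower, and the fitted differences hardly moved. Sis, sucrase-isomaltase, was at 772, 627 and 348 CPM in IL-25+ and at 1669, 2331 and 1934 CPM in IL-25- libraries (-1.76 ± 0.29, adjusted p = 0.00177; -1.74 and 0.406 with all 12 libraries). Anpep, an aminopeptidase, was at 2012, 1795 and 973 CPM against 4930, 5446 and 5211 CPM (-1.71 ± 0.27; adjusted p = 0.00145, and 0.362 with all 12 libraries). Slc5a1, the sodium-glucose cotransporter, was at 772, 776 and 530 CPM against 2145, 3804 and 1881 CPM (-1.91 ± 0.30; adjusted p = 0.00129 and 0.242). Apoa1, of lipoprotein particles, was at 834, 984 and 752 CPM against 2103, 4247 and 2113 CPM (-1.72 ± 0.30; adjusted p = 0.00218 and 0.391). The groups did not overlap for any of these genes, and IL-25+ library 3 had the lowest level of each.

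Fabp1 went against its list. This fatty acid-binding protein was at 4619, 7099 and 7015 CPM in IL-25+ libraries and at 466, 954 and 680 CPM in IL-25- libraries (3.16 ± 0.31, adjusted p = 0.000126), while its relative Fabp2 was at 333, 241 and 293 CPM against 476, 1651 and 961 CPM (-1.83 ± 0.39; adjusted p = 0.00616, and 0.362 with all 12 libraries). Other large losses in mean CPM were Lypd8, a surface protein that keeps bacteria from the epithelium, at 2874, 2268 and 1716 CPM against 6284 to 6392 CPM (-1.47 ± 0.22), Pigr, the receptor that carries IgA to the lumen (-2.17 ± 0.27), Dmbt1 (-2.48 ± 0.58) and Clca3b (-3.55 ± 0.54). The calls of Lypd8 and Clca3b ended with all 12 libraries in the fit (adjusted p = 0.37 and 0.137) and that of Dmbt1 with no filter on low counts (0.123).

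Of 5 genes of proteins that link the tips of microvilli, in a list written after the data were seen, 3 rose and 2 were not called. Cdhr5, a protocadherin of microvillus tips, had the third largest gain in mean CPM, to 9555, 10950 and 13340 CPM from 1279, 2118 and 1168 CPM (2.89 ± 0.28, adjusted p = 0.00012). Its binding partner Cdhr2 was at 2654, 3035 and 4233 CPM against 426, 1033 and 514 CPM (2.33 ± 0.35, adjusted p = 0.00113), a call that ended with all 12 libraries in the fit (0.1). The scaffold Ush1c rose by 0.59 ± 0.16, a call that ended with all 12 libraries (0.292) and without IL-25- library 1 or 3 or IL-25+ library 2 or 3 (0.0553 to 0.0641), and the motor Myo7b was not called (-0.16 ± 0.16).

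Most interferon-response genes rose. Of 19 tested, 16 rose and 1 fell, with a median log2 difference of 2.42; with all 12 libraries 12 rose. Oas2, an antiviral oligoadenylate synthetase, was at 860, 1435 and 770 CPM in IL-25+ and at 25.2, 50.1 and 10.4 CPM in IL-25- libraries (5.16 ± 0.58, adjusted p = 0.000238). Irf7, the master regulator of interferon genes, was at 259, 329 and 389 CPM against 18.2, 53.2 and 15.3 CPM (3.50 ± 0.47). Isg15 (4.23 ± 0.44), Rsad2 (4.25 ± 0.56), Mx2 (4.04 ± 0.54) and Oasl2 (2.85 ± 0.32) rose as well. Ifitm3, which blocks virus entry and is also known from crypt cells, fell, from 146, 43.2 and 83.4 CPM to 9.28, 4.61 and 7.95 CPM (-3.64 ± 0.47). Ifih1, a sensor of viral RNA, rose by a log2 difference of only 0.79. Its call ended with all 12 libraries (adjusted p = 0.0627) and without IL-25- library 1 or 3 or IL-25+ library 2 or 3 (0.0645 to 0.0959).

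Antigen presentation genes split by class. Of 13 tested class I genes, in a list written after the data were seen, 6 rose, 2 fell and 5 were not called. The shares were 46.2% higher, against 18.1% of all genes tested, and 15.4% lower, near the 18.8% of all genes tested. The median log2 difference of the class I list was 0.66. H2-K1 was at 4188, 5251 and 6852 CPM in IL-25+ and at 963, 1279 and 884 CPM in IL-25- libraries (2.38 ± 0.25, adjusted p = 0.000166), H2-D1 rose by 3.57 ± 0.27, and their shared light chain B2m was at 3401, 4120 and 4451 CPM against 1089, 1433 and 1057 CPM (1.74 ± 0.20). H2-K1 and H2-D1 have near-identical relatives, so reads of 50 bases may be split between them. Nlrc5, the transactivator of class I genes, rose by 2.28 ± 0.54. The trimming peptidase Erap1 and the chaperone Pdia3 fell, calls that both ended without IL-25+ library 2 (adjusted p = 0.0683 and 0.0567), and that of Erap1 also without IL-25- library 3 (0.072) or IL-25+ library 3 (0.0666). All 7 class II genes fell, with a median log2 difference of -2.07, and 4 fell with all 12 libraries in the fit, H2-Ab1 (0.348) not among them. Cd74, the invariant chain, was at 219, 225 and 108 CPM against 1250, 811 and 699 CPM (-2.32 ± 0.33), and Ciita, the transactivator of class II genes, was at 3.50, 0.768 and 0.623 CPM against 32.6, 16.8 and 23.1 CPM (-3.88 ± 0.69, adjusted p = 0.00259).

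**Figure D4:**
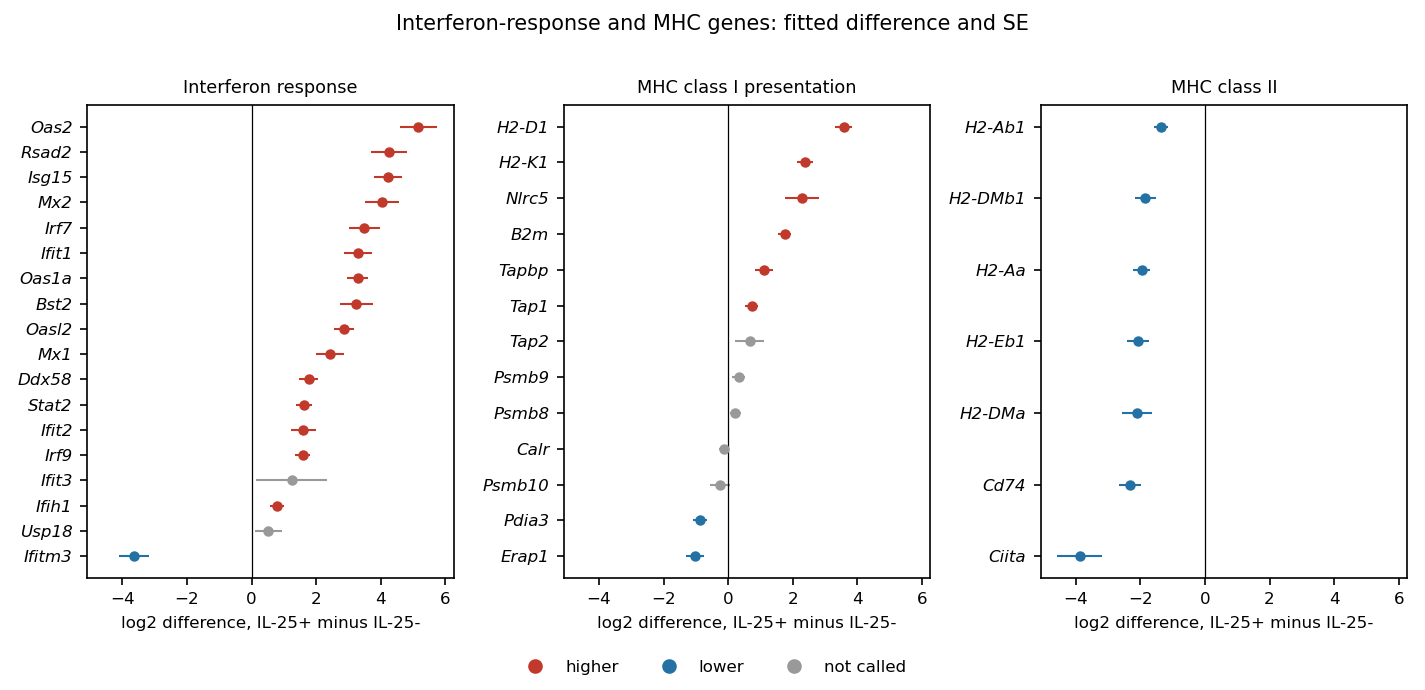
Fitted log2 difference (IL-25+ minus IL-25-) with its SE for 18 of 19 tested interferon-response genes, 13 of class I presentation and 7 of class II, 3 libraries per group, coloured by call. Class I genes lie on both sides of 0, from -1.04 to 3.57 with a median of 0.66. All class II genes lie to the left of 0, from -1.35 (H2-Ab1) to -3.88 (Ciita).

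Of 6 epithelial reference genes, all tested, 4 rose, 1 fell and 1 was not called. Both fractions were sorted on EpCAM, so the presence of Epcam is no check of their epithelial origin. Epcam, used in the sort, was at 2858, 3021 and 3706 CPM in IL-25+ and at 1310, 1313 and 1473 CPM in IL-25- libraries (1.23 ± 0.18, adjusted p = 0.000945). Cdh1, E-cadherin, was at 1004, 943 and 1267 CPM against 1153, 981 and 1050 CPM and was not called (0.01 ± 0.18, adjusted p = 0.962). Krt20, a keratin of mature villus cells, fell (-2.52 ± 0.39). Of 13 tested gallbladder and cholangiocyte genes 6 fell and 1 rose: the keratin Krt23 was at 417, 448 and 571 CPM against 9.31, 38.9 and 5.76 CPM (4.74 ± 0.68). Those that fell, among them Krt19, Krt7, Aqp1, Cftr, Slc4a4 and the low-level Gkn3, were present in all 3 IL-25- libraries. Muc1, at 4.63, 4.57 and 55.6 CPM in IL-25- libraries 1 to 3, stood out in library 3 and was not called (-2.54, adjusted p = 0.0766). Its log2 difference was -0.30 without that library, and it was called without IL-25- library 1 (-3.02, adjusted p = 0.0434). With library 3 left out, 6 genes of the list fell. The duct and foregut factors Pdx1 and Onecut2 and the mucin Muc6 were read in both fractions and were not called. Cps1 and Ttr of the hepatocyte list fell, Cps1 from 1967, 870 and 1668 CPM to 298, 137 and 101 CPM, a call that ended with all 12 libraries in the fit (adjusted p = 0.195). Of the 9 pancreatic acinar genes, 7 were at 0 in all 6 libraries.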

How the data were processed

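Counts of reads per Ensembl gene were used as the authors deposited them. Per the submitters' processing notes they came from STAR 2.7.2b and GRCm38, and DESeq2 1.26 is also named; the read counter, strand setting and annotation release are not given in the sources used here. Per the labels' protocols, bead-captured mRNA was amplified and libraries were made with a kit that does not mark strand, then read as single 50 bp ends. Of 43432 genes, 42548 matched GENCODE M21. Left unused were 11 columns whose names fit none of the sample labels. Of 199 tested genes named in the text, 35 share some exon bases with a gene on the opposite strand (among them Trpm5, Dclk1, Avil, Il17rb, Ptpn6 and Irf7). Reads that fall in the shared bases cannot be told apart from that gene's. The shared stretch was 220 of 6398 exon bases in Trpm5 and 27 of 15296 in Dclk1.

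The 6 libraries were grouped by titled tissue and gate, 3 per group. Replicates were distinct (chi-square per degree of freedom at least 45.3). Low genes were removed with filterByExpr (minimum count 10), and counts were scaled by TMM and tested two-sided with edgeR 4.0.16 (robust quasi-likelihood F test, group as the only factor, R 4.3.3), with Benjamini-Hochberg adjustment over the 14647 genes tested and a threshold of 0.05. The SE of a log2 difference is its size over the square root of F. A count of 0 allows 3 counts, which is 0.0688 to 0.11 CPM in a library and 0.0266 (IL-25-) or 0.0357 (IL-25+) CPM over a group. The 95% interval of a ratio against 1 to 3 counts is exact binomial, and intervals and floors cover counting error only. The procedure was tested on simulated counts.

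The comparison, the members and the 28 gene lists were chosen with earlier results of these data known, and 4 further lists (MHC class I presentation, intermicrovillar adhesion, Hox genes, long intergenic RNAs) were added after seeing the data, so no list is independent support. Named are Il25, the 12 largest fitted increases and decreases among called protein-coding genes with at least 20 CPM and groups that do not overlap, the 10 largest gains and losses in mean CPM, members of the lists with a written role, members called against their list, and members of lists of other cell types with at least 5 CPM in a library; a few genes that this rule takes are not reported here. Outside this rule, Ly6g6d, Hox genes, AI838599 and 1700081H04Rik were chosen after their values were seen. Some list members without a written role are named as well, among them 1810046K07Rik, Colca2, Mki67, Pcna and Ccnb2. The results were recomputed with DESeq2 1.42.0, with limma-voom (limma 3.58.1, quality weights), with RLE in place of TMM, with no filter or at least 5 CPM in 3 libraries, with a block for the replicate number, with all 12 libraries fitted together, without mitochondrial genes, and without each library. Figures used matplotlib 3.10.9.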

Additional observations from a re-analysis of the deposited data

How the results depend on the processing

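The number of genes called was 4191 to 6531 under 14 alternatives, and 74.8% to 99.6% of the 5406 calls were kept, each in the same direction. Leaving out each library gave 4191 to 5589 calls. Of 199 named genes, 136 kept their side of the threshold throughout. Among the 199, direction turned only for genes that were not called. These were Cdh1 (-0.03 with limma-voom and with the filter of 5 CPM, -0.01 without mitochondrial genes, -0.11 to 0.11 without each library), Cd3e (1.19 with limma-voom, -1.44 to 2.05 without each library), Cd8a (-0.81 and -2.35 to 0.93) and, without each library, Igkc (lowest -2.84, without IL-25+ library 3), Gzma (-2.18 to 1.01), Gzmb (-1.64 to 0.55), Itgae (-1.06 to 0.01) and Itgam (-1.01 to 0.04). With all 12 libraries in the fit, 4529 genes were called, and the counts of brush border, nutrient transport and lipid absorption genes that fell went from 16, 10 and 11 to 3, 4 and 3; the cause was not tested.

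Same-numbered libraries did not vary together (r = 0.038, 0.004 and -0.034). The labels do not say what a replicate number shares. These correlations between different cell fractions cannot show whether same-numbered libraries share a mouse or a sort. With the replicate block 4924 genes were called, and Gzmb (0.12), Cd3e (0.63) and Cd8a (-0.69) turned direction without being called. The block also added calls of Igkc (3.08, adjusted p = 0.0327) and Muc1 (-1.73, adjusted p = 0.0453).

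With 3 libraries per group, genes that vary between IL-25- libraries are the least certain: Zg16 was called at an adjusted p of 0.0385 and at 0.103 without IL-25- library 2. Low counts limit Gng13, Sucnr1 and Slc18a3. Depth cannot show Il25 in IL-25- library 1 below its floor of 0.0807 CPM.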

Other observations

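The mitochondrially encoded genes were read unevenly. Of 13 listed, 8 were tested and 3 fell, mt-Nd1 (-1.20 ± 0.25), mt-Nd2 (-0.65 ± 0.22) and mt-Co1 (-1.07 ± 0.36), while mt-Co2, mt-Co3 and mt-Atp8 were at 0 in all 6 libraries although mt-Cytb was at 28320 to 77930 CPM. Without each library in turn 1 or 2 of the 8 fell. The calls of mt-Nd2 and mt-Co1 ended under 7 and 6 alternatives, among them the omission of any 1 library other than IL-25- library 1 for mt-Nd2 (adjusted p = 0.0692 to 0.145) and other than IL-25- library 3 for mt-Co1 (0.0645 to 0.125).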
